A study of Mus musculus with 2 samples.

Results

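Extracellular and lysosomal proteases were examined in Colon26 tumours and their liver metastases: matrix metalloproteases (Mmp), their tissue inhibitors (Timp), the ADAM and ADAMTS families, cathepsins (Cts), and the plasminogen activators Plau and Plat with the receptor Plaur. Members were chosen by symbol among the genes with a value on both arrays, which gave 66 of 13506 genes. Colon26 is a mouse colon carcinoma line. In this series its cells were injected under the rectal lining of Balb/c mice, and RNA was taken both from the primary tumours and from metastases in the liver. The sources used here give no mouse age or sex, and do not say whether tumour cells were separated from host cells or whether several animals were pooled. Each of 2 two-colour arrays held 1 primary tumour in Cy5 and 1 liver metastasis in Cy3, and each array used its own independently raised tumour and metastasis. All samples came from 1 cell line, and no normal liver or rectum served as a control, so each ratio compares a tumour in the rectum with a tumour in the liver.

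A value is the log ratio of the 2 channels, taken as log2, given as mean ± SD of the 2 arrays. The sources used here do not state which tissue is the numerator, so positive and negative values are reported as the 2 sides of the ratio and neither is assigned to the metastasis. The dyes were not swapped, so a bias of a probe towards 1 dye cannot be told apart from the tissue difference. In bulk RNA, fewer cells of a type and less RNA per cell cannot be told apart either. Ratios give no level, so the identity of the tissues could not be checked from expressed or absent markers. Genes were tested against a ratio of 0 with limma across all 13506 genes, and a gene was called at a Benjamini-Hochberg adjusted p under 0.05.

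Matrix metalloproteases are zinc-dependent enzymes, made as inactive precursors, that cleave collagens, proteoglycans and other extracellular proteins, and the TIMPs bind and block them. ADAMs are membrane-anchored relatives that release growth factors, cytokine receptors and adhesion molecules from the cell surface, while the secreted ADAMTS enzymes process procollagen and proteoglycans. Plasminogen activators turn plasminogen into plasmin, which degrades fibrin and activates some MMPs. Cathepsins work mostly inside lysosomes and can be secreted by tumour and myeloid cells. These systems are known for their part in invasion and in the remodelling of the tissue around tumours.

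Mmp3, Mmp13, Mmp12, Mmp7 and Mmp8 are measured genes of 1 cluster of 10 Mmp genes on chromosome 9. The 100 bases before their annotated starts are shown because the ratios of these neighbours lay on different sides of 0, while some of these windows carry the same element. Sequences are from RefSeq, build GRCm38.p6, plus strand, and capitals mark TGAGTCA or its reverse complement TGACTCA, the element bound by AP-1 (Fos and Jun proteins). The windows are chr9:7445722-7445821 for Mmp3, chr9:7272414-7272513 for Mmp13, chr9:7344297-7344396 and chr9:7347274-7347373 for the upstream and downstream starts of Mmp12, chr9:7691990-7692089 and chr9:7692241-7692340 for the upstream and downstream starts of Mmp7, and chr9:7558329-7558428 for Mmp8.
Mmp3: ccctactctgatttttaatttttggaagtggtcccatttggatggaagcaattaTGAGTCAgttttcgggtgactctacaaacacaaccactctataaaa
Mmp13: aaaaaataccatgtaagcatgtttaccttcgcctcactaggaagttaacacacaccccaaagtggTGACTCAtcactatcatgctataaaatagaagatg
Mmp12, upstream start: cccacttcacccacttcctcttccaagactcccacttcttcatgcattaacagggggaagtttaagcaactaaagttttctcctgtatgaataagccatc
Mmp12, downstream start: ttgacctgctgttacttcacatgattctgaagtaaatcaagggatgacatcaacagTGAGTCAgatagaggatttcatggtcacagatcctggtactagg
Mmp7, upstream start: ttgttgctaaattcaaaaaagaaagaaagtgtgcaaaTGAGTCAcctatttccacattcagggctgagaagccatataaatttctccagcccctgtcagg
Mmp7, downstream start: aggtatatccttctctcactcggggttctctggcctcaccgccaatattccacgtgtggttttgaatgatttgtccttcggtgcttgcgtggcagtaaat
Mmp8: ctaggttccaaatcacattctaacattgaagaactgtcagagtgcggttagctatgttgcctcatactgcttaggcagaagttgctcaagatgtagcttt
The element ended 39 bases before the start of Mmp3, 28 before that of Mmp13, 37 before the downstream start of Mmp12 and 56 before the upstream start of Mmp7. It was not found in the printed windows of Mmp8, the upstream start of Mmp12 and the downstream start of Mmp7. Over the full windows of 250 bases before to 50 after a start, searched on both strands with no overlap between the 2 forms, 5.2% of all 32851 promoters held it. Of the 66 members, 40 had a promoter in the table, with 44 windows, of which 6 (13.6%) held the element. These belong to the 4 Mmp genes named, Adam29 and Plaur. These are matches of letters and no measurement of binding.

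The protease genes as a whole lay on no common side of the ratio, and Mmp3 was the member farthest from 0. Both arrays gave a positive value for 23 of the 66 and a negative value for 24, against 33.9% and 38.2% of all genes. The signs of the 2 arrays matched for 47 members, against 72.2% of all genes, and differed for 19. The median was -0.03, beside -0.02 over all genes. Mmp3 and the cathepsin Ctsw, both on the negative side, were the 2 called members, while 2.9% of all genes tested were called, split into 2.12% with positive and 0.777% with negative ratios. At an unadjusted p under 0.05 stood 24 members, against 27.5% of all genes. A distance of at least 1 log2 unit from 0 on both arrays was met by 3 members and by 2.27% of all genes. Mmp3 and Ctsw met it on the negative side, as 0.578% of all genes did, and Adamts6 on the positive side, as 1.69% did. With array 1 alone 6 members met that size, and with array 2 alone 9. The counts of called members and of signs thus lay near the shares of all genes.

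**Figure D1:**
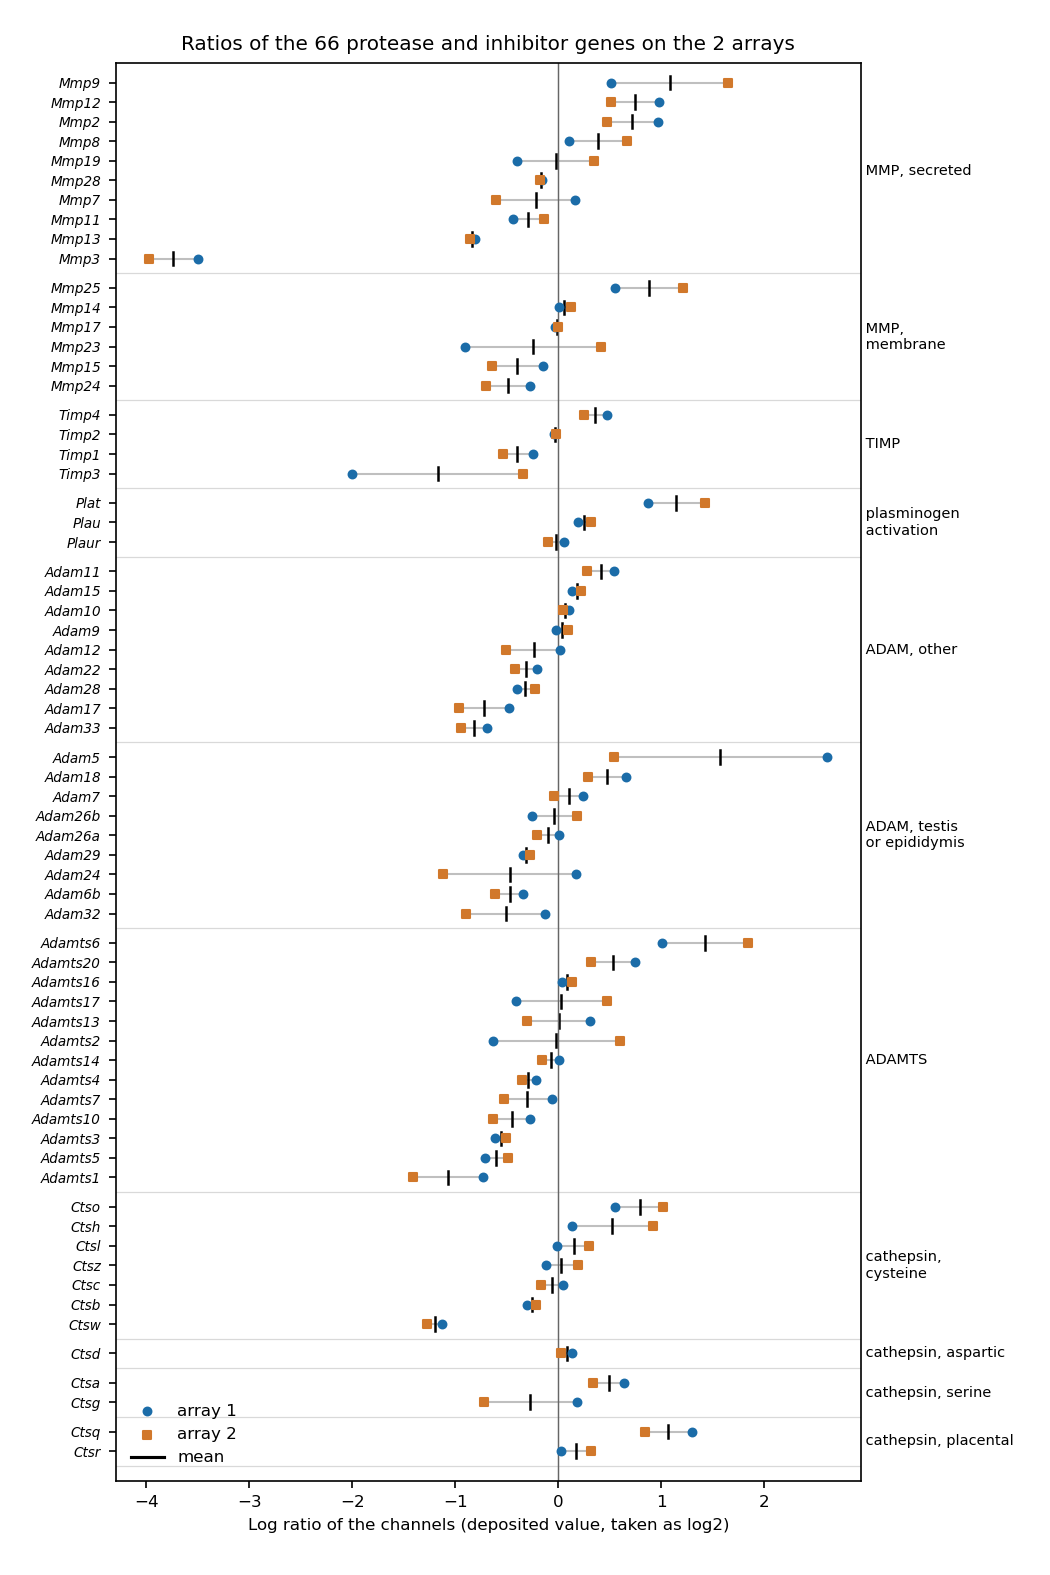
Log ratio (x axis, taken as log2) of each of the 66 members, grouped by subfamily, with array 1 as a circle, array 2 as a square, their mean as a bar and a grey line joining the arrays. Mmp3 lies apart from the other members at -3.50 and -3.97, and most means lie within 1 unit of 0.

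Mmp3, stromelysin-1, cleaves proteoglycans, laminin and fibronectin and activates other MMPs, and is made mainly by fibroblasts and other mesenchymal cells. Its log ratio was -3.50 on array 1 and -3.97 on array 2. Both arrays lay far on the negative side, and only 1 of the 13506 genes had a mean farther out there. The mean was -3.74 ± 0.33 (SD, n = 2), which is 13.3-fold on a log2 scale. The 95% interval in limma ran from -4.21 to -3.27, and its adjusted p was 0.0127. The call was kept in 7 of 9 alternative settings, with adjusted p in limma from 0.0136 to 0.0316. It was lost after quantile normalization (limma adjusted p = 0.0641) and without moderation of the spread (ordinary t test, adjusted p = 0.463).

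The other secreted MMPs were spread to both sides. Collagenase 3, encoded by Mmp13, had -0.81 and -0.86 on the 2 arrays, a close match. Its mean was -0.84 ± 0.04 (SD, n = 2) (limma adjusted p = 0.0593), and the interval ran from -1.22 to -0.45. The gelatinases, which cleave denatured collagen and basement membrane collagen, lay on the positive side. Mmp2 had 0.97 and 0.47, with a mean of 0.72 ± 0.35 and a limma adjusted p of 0.101. Mmp9 had 0.51 and 1.65, so the arrays shared the sign and differed 1.14 units in size. Its mean was 1.08 ± 0.80 (limma adjusted p = 0.108), inside an interval from 0.33 to 1.83. Macrophage elastase, Mmp12, had 0.98 and 0.51 (mean 0.74 ± 0.33, limma adjusted p = 0.0936). The neutrophil collagenase Mmp8 had 0.10 and 0.67. Mmp11, stromelysin-3, had -0.44 and -0.14, and matrilysin, Mmp7, an epithelial enzyme, had 0.16 and -0.60. Mmp19 and Mmp28 had means of -0.02 and -0.17. Of the 10 secreted MMPs measured, Mmp3 alone was called in limma, while 2.9% of all genes were. An unadjusted p under 0.05 was reached by 5 of the 10 and by 27.5% of all genes.

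Neighbours in the cluster did not share a ratio. In the order of the annotation, Mmp13 at -0.84 ± 0.04 (SD, n = 2) is followed by Mmp12 at 0.74 ± 0.33, and next come Mmp1b, Mmp3, Mmp1a, Mmp10 and Mmp8. Mmp1b and Mmp1a, which flank Mmp3, had a value on array 2 alone, -0.77 and 1.77, and Mmp10 had none. Mmp3 and Mmp13, with the AP-1 element at their 1 listed start, and Mmp12 and Mmp7, with it at 1 of 2 listed starts, had means of -3.74, -0.84, 0.74 and -0.22. The means of these 4 thus ran from the far negative side to the positive side. Mmp12 was positive and Mmp13 and Mmp3 negative on both arrays. The 95% intervals of these 3 in limma did not include 0, but they are not adjusted over genes. An unadjusted p under 0.05 was reached by 27.5% of all genes. Mmp12 and Mmp13 were not called (limma adjusted p = 0.0936 and 0.0593). The cluster was shown because its ratios differed, so this spread is a description and no test. Outside the cluster, Plaur and Adam29, which hold the element too, had -0.02 ± 0.11 and -0.31 ± 0.05, and the sign of Plaur turned after centring or scaling the arrays.

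**Figure D2:**
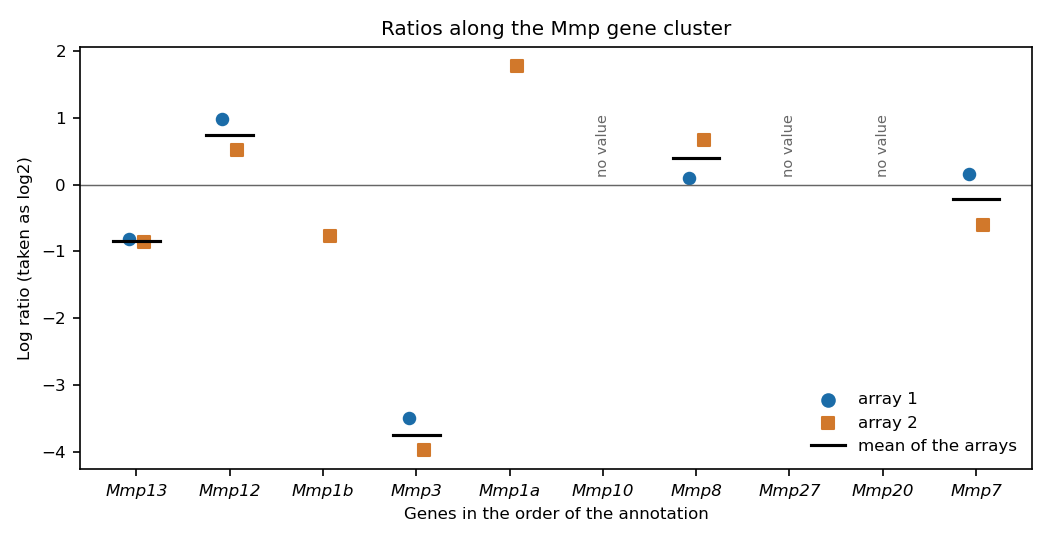
Log ratio (y axis, taken as log2) of the Mmp genes of the cluster in their annotated order (x axis), with array 1 as circles, array 2 as squares and the mean of both arrays as a bar. Mmp3 at -3.74 stands between Mmp1b and Mmp1a, which have array 2 values of -0.77 and 1.77, and the genes marked without a value had none on either array or no probe.

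Membrane-bound MMPs act at the cell surface. Mmp14, or MT1-MMP, which activates the precursor of Mmp2, had 0.01 and 0.12 on the arrays. Its mean was 0.06 ± 0.08 (SD, n = 2) with a limma interval from -0.33 to 0.45, so a difference of a size inside these bounds remains possible. Mmp25, a membrane MMP known from leukocytes, had 0.55 and 1.21, with a mean of 0.88 ± 0.47 and an adjusted p in limma of 0.0906. Mmp15 and Mmp24 had -0.40 ± 0.35 and -0.49 ± 0.31, and Mmp17 had -0.01 ± 0.02. For Mmp23 the arrays disagreed, with -0.91 on array 1 and 0.41 on array 2. None of the 6 was called in limma (0 of 6), where 2 reached an unadjusted p under 0.05, against 27.5% of all genes.

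The 4 TIMPs, which inhibit the MMPs and several ADAMs, were all measured. On both arrays 3 were negative, among them Timp2 very close to 0, against 38.2% of all genes. Timp3, which is bound to the matrix and also blocks Adam17, had -2.00 on array 1 and -0.34 on array 2. The size thus came mostly from array 1. Its mean was -1.17 ± 1.17 (SD, n = 2) (limma adjusted p = 0.150), and the interval reached from -2.19 to -0.15. Timp1, an inducible inhibitor, had -0.25 and -0.54, with a mean of -0.40 ± 0.21. Timp2, which also takes part in the activation of Mmp2 by Mmp14, had -0.04 and -0.02 (mean -0.03 ± 0.01). Timp4 was the positive one, with 0.47 and 0.25. In limma 0 of 4 were called, and Timp3 alone reached an unadjusted p under 0.05, as 27.5% of all genes did.

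In the plasminogen system both activators had positive values on each array. Plat, tissue plasminogen activator, which is known from endothelium, had 0.87 and 1.42. Both arrays were clearly above 0. Its mean was 1.14 ± 0.39 (SD, n = 2), or 2.21-fold on a log2 scale, and its interval ran from 0.65 to 1.64. The adjusted p in limma, 0.0553, lay just above the threshold. Plau, urokinase, the activator most often studied in tumour invasion, had 0.19 and 0.32, with a mean of 0.25 ± 0.09 and an interval in limma from -0.14 to 0.64. Plaur, which holds urokinase at the cell surface, had 0.06 and -0.10. Endothelial markers were positive on both arrays for 7 of 7 measured genes of 8 listed, against 33.9% of all genes. Their median was 0.54. Limma called Flt1 and Robo4, while 2.12% of all genes were called with positive ratios. The part of endothelial cells in the ratio of Plat was not tested.

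Of the partners of this system, listed together with other network genes, Serpinb2, an inhibitor of both activators, had 0.95 ± 0.34 (SD, n = 2; limma adjusted p = 0.0658). Tfpi2, an inhibitor of plasmin, had 1.46 and 0.57. From the same inhibitor list, Serpine2 had -0.47 and 0.10 (mean -0.18), and Serpinf2 had 0.00 and -0.71 (mean -0.36). That list, which also covers inhibitors of other proteases, held 12 measured genes. Each array lay above 0 for 4 of the 12 and below 0 for 3, while 5 had no common sign. Plg, plasminogen itself, made by hepatocytes, had -0.04 ± 0.18. The plasminogen-binding proteins Anxa2, S100a10 and Eno1 were negative on both arrays, at -0.59 ± 0.22, -0.22 ± 0.02 and -0.62 ± 0.18. Plgrkt, another plasminogen receptor, was positive on both, with 0.18 and 0.86. Lrp1, the endocytic receptor that clears protease and inhibitor complexes, had -1.38 and -0.90, with a mean of -1.14 ± 0.34 and an adjusted p in limma of 0.0508. In limma, 0 of the 7 genes listed for plasminogen and its binding sites were called. An unadjusted p under 0.05 was reached by 3 of them, against 27.5% of all genes.

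Among the ADAMs, the 2 main sheddases differed in value. Adam17, which releases tumour necrosis factor and EGF receptor ligands, had -0.48 and -0.96, and both arrays were negative. Its mean was -0.72 ± 0.34 (SD, n = 2) (limma adjusted p = 0.100), in an interval from -1.19 to -0.25. Adam10, which cleaves Notch and E-cadherin, had 0.10 and 0.05 (mean 0.07 ± 0.04), and its interval in limma ran from -0.31 to 0.46. Neither was called, and the difference between them was not tested. Rhbdf1 and Rhbdf2, the iRhoms that carry Adam17 to the surface, had -0.39 ± 0.29 and -0.13 ± 0.10, and Hbegf, an Adam17 substrate, had -0.22 ± 0.00. Tspan15, a partner of Adam10, had -0.23 ± 0.11.

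Other ADAMs with roles in somatic tissues lay between -0.82 and 0.41. Adam33, known from smooth muscle and fibroblasts, had -0.69 and -0.94, with a mean of -0.82 ± 0.18 (SD, n = 2) and an adjusted p in limma of 0.0672. Adam11, an ADAM of neurons, had the highest value, 0.41 ± 0.19, while Adam9 and Adam15 had 0.04 ± 0.08 and 0.18 ± 0.07, and Adam12 had -0.24 ± 0.37. Adam28 had -0.32 ± 0.12, and Adam22, a ligand-binding ADAM of neurons without protease activity, had -0.31 ± 0.15. Of the 9 somatic ADAMs, Adam10 and Adam17 included, 0 were called in limma. An unadjusted p under 0.05 was reached by 2, Adam17 and Adam33, and by 27.5% of all genes.

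Of the ADAMs known mainly from testis or epididymis, 9 of 17 on the platform had values on both arrays (52.9%), against 82.4% of all genes on the platform. Adam5 had the highest mean of all members, but its arrays were far apart, at 2.61 and 0.54 (mean 1.57 ± 1.47, SD, n = 2; limma adjusted p = 0.129). Adam24 had 0.17 and -1.12. Over the 66 members the arrays differed by more than 1 unit for 6 genes (9.09%), among them these 2, against 5.01% of all genes. The other four were Timp3, Mmp23, Adamts2 and Mmp9. Adam18, Adam6b, Adam32 and Adam29 had means of 0.47, -0.47, -0.51 and -0.31. Of the 9, 0 were called in limma and 3 reached an unadjusted p under 0.05, against 27.5% of all genes. Adam26a and Adam26b, which are close copies, had -0.10 ± 0.16 and -0.04 ± 0.31.

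**Figure D3:**
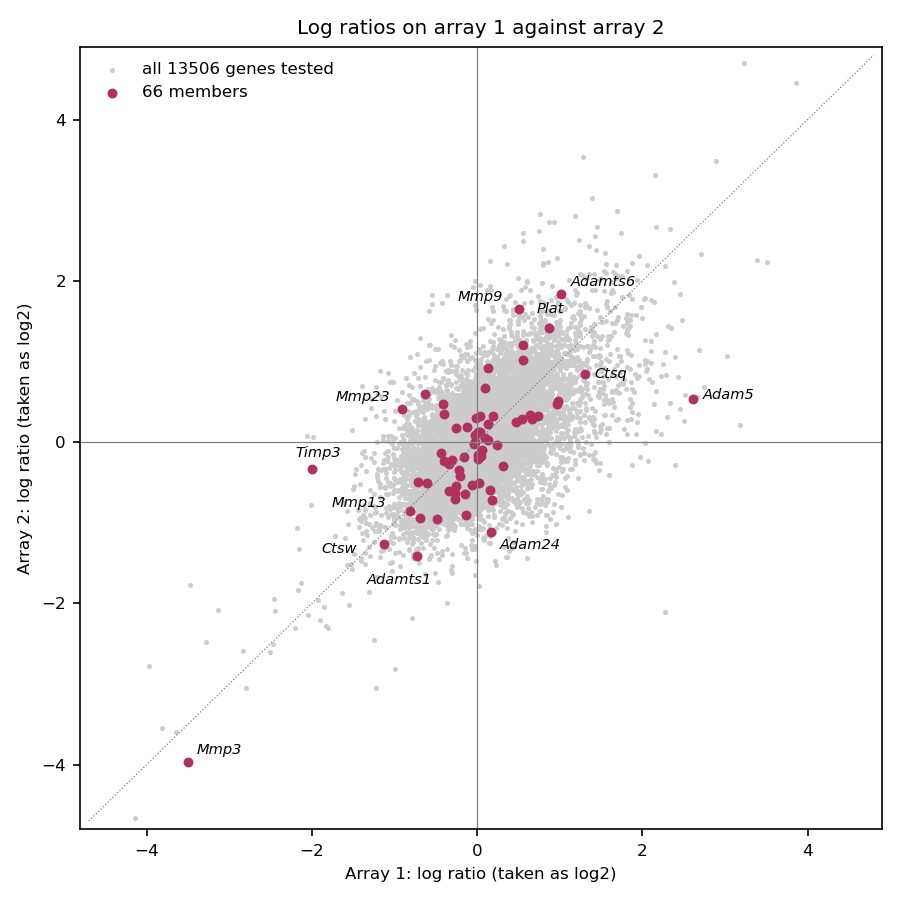
Log ratio on array 1 (x axis) against array 2 (y axis), both taken as log2, with all 13506 genes in grey, the 66 members in red and a dotted line where the arrays are equal. Mmp3 lies at the far negative end on both arrays, whereas Adam5 and Timp3 are far from 0 mainly on array 1 and Mmp9 mainly on array 2.

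ADAMTS enzymes gave a wide range, from -1.07 to 1.42 over 13 genes. Adamts6, a little-studied secreted member, had 1.01 and 1.84, so both arrays reached 1 log2 unit. Its mean was 1.42 ± 0.58 (SD, n = 2), or 2.68-fold on a log2 scale, at an adjusted p in limma of 0.0537. Adamts1, which cleaves versican and binds VEGF, had -0.73 and -1.41, with a mean of -1.07 ± 0.48 and an adjusted p of 0.0687. The aggrecanase Adamts5 had -0.71 and -0.49 (mean -0.60 ± 0.15), and the related Adamts4 had -0.22 and -0.35. Adamts3, a procollagen processing enzyme, had -0.61 and -0.51. Adamts2, which removes the amino-terminal propeptide of procollagens, had -0.63 on array 1 and 0.60 on array 2, and its mean of -0.02 turned positive after centring. Adamts13, which cleaves von Willebrand factor and is made in the liver, had 0.31 and -0.30. Both arrays were negative for 6 of the 13 and positive for 3, against 38.2% and 33.9% of all genes, and 4 had opposite signs. Calls in limma numbered 0, and 6 genes reached an unadjusted p under 0.05, as 27.5% of all genes did.

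The ratios of the cathepsins were mostly small, as those of most genes were. Ctsb, Ctsd and Ctsl, abundant enzymes of lysosomes that are often raised in tumours, had -0.26 ± 0.06 (SD, n = 2), 0.08 ± 0.07 and 0.15 ± 0.22. Their limma intervals ran from -0.65 to 0.13, from -0.31 to 0.47 and from -0.28 to 0.57. Ctsc, which activates the granule proteases of leukocytes, had -0.06 ± 0.16, and Ctsz had 0.03 ± 0.22. Ctsh had 0.13 and 0.92, and Ctso, a widely expressed cysteine cathepsin, had 0.55 and 1.02 (mean 0.79 ± 0.33, limma adjusted p = 0.0882). Ctsa, a serine carboxypeptidase that protects lysosomal galactosidase and neuraminidase, had 0.64 and 0.34. Ctsg, a serine protease of neutrophil granules, had 0.18 and -0.72. Of the 12 cathepsins, Ctsw, Ctsq and Ctsr included, 8 had a mean within 0.5 of 0. Beside them stood 45 of the 66 members and 10563 of all 13506 genes, so nearness to 0 was not particular to the cathepsins.

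Ctsw, a cysteine cathepsin of cytotoxic T and NK cells, was the other called member. It had -1.13 and -1.27, and the arrays lay close together on the negative side. The mean was -1.20 ± 0.10 (SD, n = 2), or 2.30-fold on a log2 scale. Limma gave an adjusted p of 0.0410 and bounds of -1.59 and -0.81. In 5 of 9 alternatives the call was kept, with adjusted p in limma from 0.0377 to 0.0467. Where the call was lost, adjusted p was 0.0518 to 0.0709 in limma and 0.463 in an ordinary t test without moderation. In the annotation Ctsw overlaps Fibp, whose own probe had 0.02 ± 0.04 (limma adjusted p = 0.928). Beside it, 10 of 17 listed T and NK cell genes were measured, a list added after the values were seen. They ranged from -0.16 to 0.99, with both arrays negative for 3 and positive for 2, against 38.2% and 33.9% of all genes. In limma 0 were called and 2 reached an unadjusted p under 0.05, as 27.5% of all genes did. These 2 were the T cell surface genes Cd2 at 0.99 ± 0.24 and Cd5 at 0.97 ± 0.41, on the side opposite to Ctsw. The cytotoxic genes Prf1 and Gzmb had -0.02 ± 0.00 and -0.08 ± 0.05. The part of these cells in the ratio of Ctsw was not tested.

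Ctsq belongs to a cluster of cathepsins known from rodent placenta, whose members are close relatives that a probe may not separate. It had 1.30 and 0.84, with a mean of 1.07 ± 0.33 (SD, n = 2) and an adjusted p in limma of 0.0554. Ctsr of the same cluster had 0.03 and 0.32.

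Further genes of the protease network were read from the same fit. Of 61 listed, 48 were measured. Both arrays were positive for 16 and negative for 20, against 33.9% and 38.2% of all genes. The median was -0.10, beside -0.02 over all genes. Limma called 2 of the 48, both negative, while 2.9% of all genes were called, 0.777% with negative ratios. The first was Prss23, a secreted serine protease, with -1.85 and -2.04 (mean -1.95 ± 0.14, SD, n = 2; limma adjusted p = 0.0282). The other was Cst6, cystatin M, an inhibitor of legumain and cathepsins, with -1.39 and -1.13 (mean -1.26 ± 0.19, limma adjusted p = 0.0410). Both genes were far from 0 on each array. Cst3, cystatin C, the main secreted inhibitor of cysteine cathepsins, had -0.38 ± 0.10, and Lgmn, legumain, had 0.42 ± 0.22. Htra1, a secreted serine protease, had -0.78 and -0.87, and Napsa, an aspartic protease, had -0.98 and -0.82, with adjusted p in limma of 0.0608 and 0.0554. On the positive side, Tll1 had 0.49 and 0.97, and Dpp4 had 0.13 and 0.72. The list of activators and other proteases held 20 measured genes. On both arrays 9 of them were positive and 7 negative, against 33.9% and 38.2% of all genes. Furin, which cuts the propeptides of ADAMs and membrane MMPs, had -0.48 ± 0.39, and Bsg, an inducer of MMPs, -0.18 ± 0.03. Igf2r, which carries newly made cathepsins to lysosomes, had -0.67 and -0.56, while the related M6pr had 0.20 and -0.07.

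**Figure D4:**
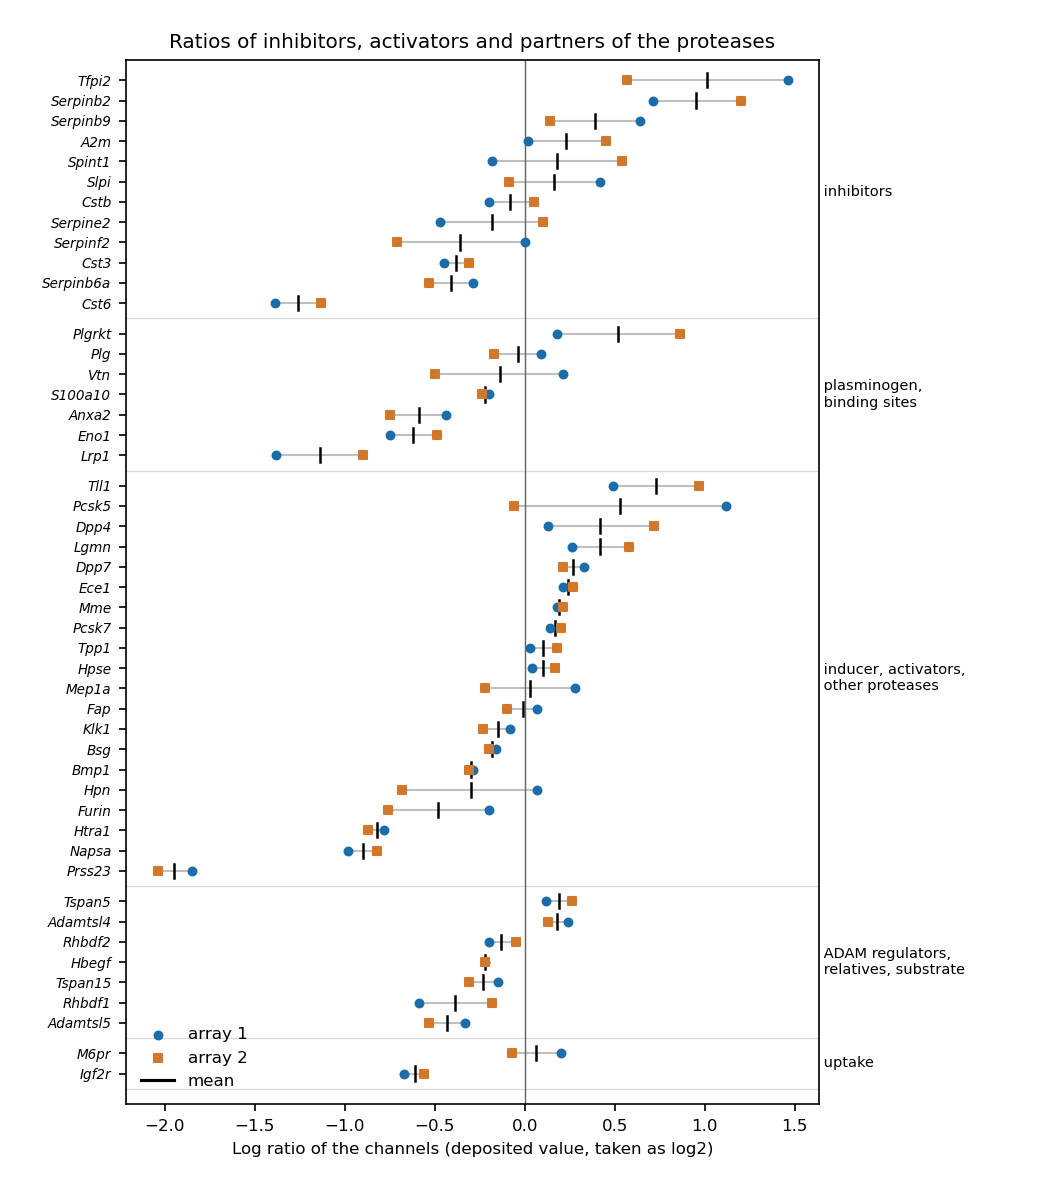
Log ratio (x axis, taken as log2) of the 48 measured network genes that are no members, grouped by role, with array 1 as a circle, array 2 as a square and their mean as a bar. Prss23 at -1.95 and Cst6 at -1.26 are the called genes, and most others lie within 1 unit of 0.

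Markers of cells that could supply these proteases were read beside them. Fibroblast markers, 6 of 9 measured, held 4 genes with negative and 0 with positive values on both arrays, against 38.2% and 33.9% of all genes. Their medians were -0.52 on array 1 and -0.10 on array 2. Limma called Col1a1 of this list, at -2.93 ± 0.18 (SD, n = 2), while 0.777% of all genes were called with negative ratios. Col1a2, Col3a1, Pdgfrb, Pdgfra and Fap had -0.24, -0.40, -0.45, 0.19 and -0.01. Mmp3 was thus farther from 0 than each measured gene of the list. Neutrophil and myeloid markers, 3 of 9 measured, had -0.88 for S100a8, 0.97 for Mpo and 0.37 for Ly6g, beside the positive values of Mmp9, Mmp8 and Mmp25 and the mixed values of Ctsg, 0.18 and -0.72. The 7 of 9 measured macrophage markers had medians of -0.21 and 0.09 on the arrays. On both arrays 2 of the 7 were positive and 3 negative. Cd14 at -1.20 was the called gene, while 0.777% of all genes were called with negative ratios. Fcgr1 at 1.12 and Cd163 at 0.66 lay on the side opposite to Cd14, beside the positive value of Mmp12. Hepatocyte markers, 8 of 12 measured, lay on both sides, with Ttr at 0.80 and Trf at 0.68 against Fah at -0.95 and Apoc3 at -0.51, and medians of -0.12 and -0.06. In limma 0 of the 8 were called, and these 4 reached an unadjusted p under 0.05, against 27.5% of all genes. Mast cell markers, 2 of 6, had -0.08 and 0.04. Colonic epithelium (6 of 8) had -0.08 and -0.01, and smooth muscle (5 of 6) had -0.23 and 0.34. The smooth muscle genes lay on both sides, with Cnn1 at 1.15 and Des at 0.89. Limma called Cnn1, while 2.12% of all genes were called with positive ratios. Smtn had -0.55, Acta2 -0.33 and Myh11 0.05. The part of these cells in the ratios of the proteases was not tested.

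Of 93 genes of the families on the platform, 27 lacked a value on both arrays and are no members. Values were absent from both arrays for 15 of them, among them Ctsk, Ctsf and Mmp10. Another 4 had a value on array 1 alone and 8 on array 2 alone. The farthest of these single values were 2.47 for Adam3 on array 2, 1.77 for Mmp1a, a mouse counterpart of interstitial collagenase, on array 2, and 1.22 for Ctss, a cathepsin of antigen-presenting cells, on array 1. Adam8, a leukocyte ADAM, had 0.58 on array 2, and Ctse, an aspartic protease of the stomach and immune cells, had 0.76 there. A value on 1 array has no replicate check. Across the 66 members, which are not independent replicates and share 2 hybridisations, Pearson's r between the arrays was 0.71, and 0.56 without Mmp3, beside 0.61 over all genes.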

How the data were processed

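The deposited table gives the authors' log ratio of the Cy5 and Cy3 channels per probe and array, here taken as log2. Not given in the sources used here are the log base (2 was assumed), the numerator, the background correction and the normalization. Per the labels' protocols, RNA was amplified with an amino-allyl kit. Both arrays had a value for 18837 of the 23473 probes. Platform symbols, present for 16631 probes, were updated through the GRCm38.p6 RefSeq gene table (3947 updated, 62 kept as given), and probes of a gene were averaged, which gave 13506 genes. Each member rested on 1 probe.

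The mean ratio of each gene was set against 0 by limma 3.58.1 (lmFit and eBayes, R 4.3.3), with 1 residual and 4.06 prior degrees of freedom, two-sided, with Benjamini-Hochberg adjustment over all genes and a threshold of 0.05. The scripts were tested on simulated data. The table holds no intensities, so background and dye bias could not be examined. Precision is limited by having 2 arrays. Medians over the genes were -0.02 and -0.029 on the arrays. The members, gene lists and tests were chosen with earlier results of these data known. Members described singly are the called ones, those at least 1 unit from 0 on both arrays, the 8 per side farthest from 0 on the weaker of their arrays, the 6 with the widest gap between arrays, and a fixed core list. Any other member named, and any network gene named singly, was picked with its values in view. Alternatives were probes as the unit, centring, scaling to equal spread, quantile normalization, a minimum fold of 1.2, no or robust moderation, genes measured on 1 array, symbols as given, and each array left out. Figures were drawn with matplotlib 3.10.9.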

Additional observations from a re-analysis of the deposited data

How the results depend on the processing

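Each array is itself 1 primary tumour against 1 liver metastasis, so the test of the mean ratio against 0 already compares the tissues within each array. The 2 arrays form 1 group, and no further pairing could be fitted. The 2 called members stayed 2 after centring, scaling, robust moderation or with symbols as given. They were 1 with a minimum fold of 1.2 and 1 in the fit on probes, where Ctsw was lost (limma adjusted p = 0.0678 and 0.0518), 0 after quantile normalization and 0 without moderation. In limma after quantile normalization, 4 of all genes were called, and without moderation 0 were. With genes measured on 1 array kept, 6 members were called, as Adamts6, Plat, Ctsq and Mmp13 joined. The calls over all genes rose from 391 of 13506 to 1041 of 14997. Some of the 1041, Adam3 and Mmp1a among them, rest on a value on 1 array, which has no replicate check. Called network genes were 2, with 1 after scaling, 1 with a minimum fold, 1 on probes, 0 after quantile normalization, 0 without moderation and 5 with genes measured on 1 array. The counts positive or negative on both arrays moved by 1 at most, apart from single arrays, with 32 to 33 positive and 33 to 34 negative. Members at least 1 unit from 0 were 3, and 6 to 9 on a single array. The median of the members, -0.03, was 0.00 after centring and -0.05 after quantile normalization, and -0.03 to 0.00 on single arrays. Centring turned the means of Adamts2 and Plaur to 0.01, and scaling that of Plaur to 0.01. No test is possible with 1 array. Unknown intensities limit every value.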
